A study of Mus musculus with 11 samples.

Results

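The mouse mitochondrial genome carries 37 genes in the GENCODE annotation of GRCm38 (mm10), recognised by symbols that start with mt-. They comprise 13 genes for proteins, 2 for ribosomal RNAs and 22 for transfer RNAs. The FPKM table, which has 34745 entries, lists the 13 protein-coding genes, and all 13 had enough signal to be tested. The ribosomal and transfer RNA genes were not analysed here. Values came from 11 poly-A RNA-seq libraries of GFP-sorted pancreatic β-cells of male mice aged 8 weeks on a mixed C57BL/6 x 129SV background. There were 3 libraries of WT mice (*RIP-Cre; Raptor+/+; Rosa26GFP*), 4 of diabetic βRapKOGFP mice (*RIP-Cre; Raptor-/-; Rosa26GFP*, without an insulin pellet) and 4 of euglycemic βRapKOGFP mice (the same genotype, with an insulin pellet for 4 weeks). All groups carried Cre under the rat insulin promoter and the GFP reporter, so the genotype contrast was *Raptor* alone, and the euglycemic group differed from the diabetic one by the pellet. Nothing in the labels states that replicates were separate animals, so p-values measure the spread between these samples, which may be technical.

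Mammalian mitochondrial DNA is transcribed from both strands into long precursors by a single-subunit RNA polymerase, and the precursors are cut at the transfer RNAs that punctuate them. The mRNAs it encodes are core subunits of the respiratory chain and of ATP synthase, and each of these enzymes is completed by subunits made from nuclear genes. In β-cells, oxidative phosphorylation fed by glucose raises the ATP level that closes potassium channels and starts insulin release. Raptor is the defining subunit of mTORC1, a kinase complex known in several tissues to act on mitochondrial gene expression.

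On the annotation the 13 mRNA genes lay between chrM:2751 and chrM:15288. Of these, 12 were on the plus strand, and only *mt-Nd6* was on the minus strand. Neighbouring genes shared bases in 4 places. *mt-Atp8* (chrM:7766-7969) and *mt-Atp6* (chrM:7927-8607) shared 43 bases, *mt-Nd4l* (chrM:9877-10173) and *mt-Nd4* (chrM:10167-11544) shared 7, *mt-Atp6* and *mt-Co3* (chrM:8607-9390) shared 1, and *mt-Nd5* (chrM:11742-13565) and *mt-Nd6* (chrM:13552-14070) shared 14 on opposite strands. The sources used here do not state that counting used strand, so fragments of *mt-Nd6* and of the transcript opposite to it cannot be told apart. The shared stretch of *mt-Atp8* and *mt-Atp6*, on the plus strand of chrM:7927-7969 of GRCm38, is shown because a fragment within it belongs to both genes. Capitals mark the start codon of *mt-Atp6*.
mt-Atp8 and mt-Atp6 overlap: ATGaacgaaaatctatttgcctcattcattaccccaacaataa

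The nuclear genome holds transferred copies of mitochondrial DNA, and several are annotated as genes with FPKM of their own. When every 50-base stretch of the 13 mRNAs was looked up in the annotated nuclear transcripts, 14 nuclear genes shared at least 1 stretch, and 11 of them were in the table. For 7 of the 13 mRNAs (*mt-Co1*, *mt-Co2*, *mt-Atp6*, *mt-Co3*, *mt-Nd3*, *mt-Nd4l* and *mt-Nd4*) most stretches were shared, from 51.1% for *mt-Co1* up to all of those of *mt-Co2*. *mt-Nd2* shared 8.2% and *mt-Nd5* 7.6%, and the 4 genes *mt-Nd1*, *mt-Atp8*, *mt-Nd6* and *mt-Cytb* shared none. Most of the sharing came from a run of copies on chromosome 1, to which *Gm28437* belongs. The first 60 bases of *mt-Co3* (plus strand, chrM:8607-8666) and of *Gm28437* (minus strand, chr1:24613912-24613971) are shown because they are the same letter for letter, so that a fragment within them could be assigned to either gene.
mt-Co3: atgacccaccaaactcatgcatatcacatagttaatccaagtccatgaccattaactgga
Gm28437: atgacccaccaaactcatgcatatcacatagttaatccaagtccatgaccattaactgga
Along the aligned length there were 0 differences between *mt-Co3* and *Gm28437*. An older copy on chromosome 2, *Gm13340*, had the full 1545 bases of *mt-Co1* with 37 differences (97.6% identity). The first 60 bases of *mt-Co1* (plus strand, chrM:5328-5387) and of *Gm13340* (minus strand, chr2:22589588-22589647) carry 2 of these differences, marked in capitals.
mt-Co1: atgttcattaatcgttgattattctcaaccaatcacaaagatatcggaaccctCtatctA
Gm13340: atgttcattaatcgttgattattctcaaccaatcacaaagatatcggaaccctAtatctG

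The files give no fragment totals. The steps between low FPKM values of single-exon genes corresponded to 9506156 to 16659222 fragments per library, with 92.3 to 97.0% of the checked values on a whole step, and this depth is an inference from the values. *Rptor*, which encodes Raptor, was at 0.948 to 1.79 FPKM in WT, 0.485 to 0.937 in diabetic and 0.423 to 0.623 in euglycemic samples, so every mutant library was below every WT library. The 6 β-cell markers summed to 155540 to 189970 FPKM in WT, 137210 to 206000 in diabetic and 115730 to 201510 in euglycemic samples, nearly all of it from *Ins1*, *Ins2* and *Iapp*. The β-cell transcription factor *Pdx1* was at 76.6 to 99.6 FPKM in WT, 39.0 to 63.0 in diabetic and 41.1 to 81.9 in euglycemic samples, and *Nkx6-1*, another, at 43.8 to 57.2, 30.2 to 42.3 and 24.0 to 51.6, so for both the diabetic libraries lay below the WT libraries without overlap. *Mafa* was at 11.9 to 62.2, 24.9 to 45.3 and 8.29 to 27.1. The 6 α-cell genes summed to 1047 to 2438 FPKM in WT, 3935 to 14718 in diabetic and 4759 to 23767 in euglycemic samples, and the 4 δ- and PP-cell genes to 2088 to 3579, 9018 to 25057 and 10350 to 26071. The 12 acinar genes summed to 4.35 to 41.6 FPKM in WT, 24.1 to 2644 in diabetic and 18.1 to 4453 in euglycemic samples. In diabetic against WT, 0 of 4 tested α-cell genes, 2 of 4 δ- and PP-cell genes and 1 of 12 acinar genes were called higher by the rule used below, against 0.471% of all genes, and in euglycemic against WT the counts were 1, 3 and 0, against 0.356%. The 5 duct genes summed to 58.1 to 71.6 FPKM in WT, 57.3 to 86.3 in diabetic and 95.8 to 131 in euglycemic samples, so the euglycemic libraries lay above WT without overlap, and of 4 tested 1 was called higher in diabetic and 2 in euglycemic against WT. The 7 endothelial genes summed to 1.68 to 4.11, 8.42 to 51.9 and 1.40 to 4.58 FPKM in the 3 groups, with 1 of 2 tested called higher in diabetic and 0 in euglycemic against WT. The 5 stellate-cell genes, none of them tested, summed to 0 to 0.052 FPKM in WT, 0.183 to 8.26 in diabetic and 0 to 0.117 in euglycemic samples. The 8 leukocyte genes summed to 9.41 to 23.4 FPKM in WT, 1.07 to 94.2 in diabetic and 1.22 to 34.6 in euglycemic samples, and 1 of 4 tested was called lower in each comparison with WT (0.498% and 0.196% of all genes). *Cd79a* was at 8.20 to 20.1 FPKM in WT and at most 0.561 in diabetic and 1.10 in euglycemic samples, *Cd74* reached 29.2 and 30.04 in the mutant groups, *Lyz2* reached 59.4 in diabetic samples, and *Cd79b* and *Cd3e* were at 0 in every library. Euglycemic replicate 4 was the library with the highest acinar sum, and diabetic replicate 1 that with the highest endothelial, leukocyte and stellate sums. In sorted bulk samples, fewer cells of a type and less RNA per cell cannot be told apart, and the part that these other cell types have in the values below was not tested.

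FPKM scales fragments by transcript length and library size, and the order given here is that of the deposited values, in which fragments of genes with a near-identical nuclear copy may be split. In WT β-cells the 3 highest mitochondrial mRNAs were *mt-Co3* at 2535 ± 651 FPKM (SD, n = 3), *mt-Co1* at 2146 ± 553 and *mt-Cytb* at 1809 ± 450. The SDs of these neighbours overlapped, but each of the 3 WT libraries had them in this order. *mt-Co2* (1103 ± 398) and *mt-Nd1* (1052 ± 197) followed, and their order differed between the libraries. Then came *mt-Atp8* (682 ± 94.4), *mt-Atp6* (600 ± 232), *mt-Nd4* (497 ± 93.5), *mt-Nd5* (436 ± 26.3), *mt-Nd6* (413 ± 97.2) and *mt-Nd2* (342 ± 61.3), where adjacent genes overlapped. Of the adjacent pairs here, only *mt-Nd6* above *mt-Nd2* had the same order in all 3 WT libraries. *mt-Nd3* (66.9 ± 8.17) and *mt-Nd4l* (55.3 ± 12.8) stood far below the others in every group. With the copies that share most stretches added, *mt-Co3* was at 4726 ± 1364 FPKM, *mt-Atp6* moved from place 7 to place 2 with 2510 ± 934 (place 3, behind *mt-Co1* at 2717 ± 722, with every copy added), and *mt-Nd3* (109.8 ± 15.3) and *mt-Nd4l* (93.4 ± 14.3) were still the lowest. The lowest inferred number of fragments in a library was 120 for *mt-Nd4l* and 146 for *mt-Nd3*, against 798 for *mt-Atp8*, so the precision of the first 2 is the most limited by counting.

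**Figure D1:**
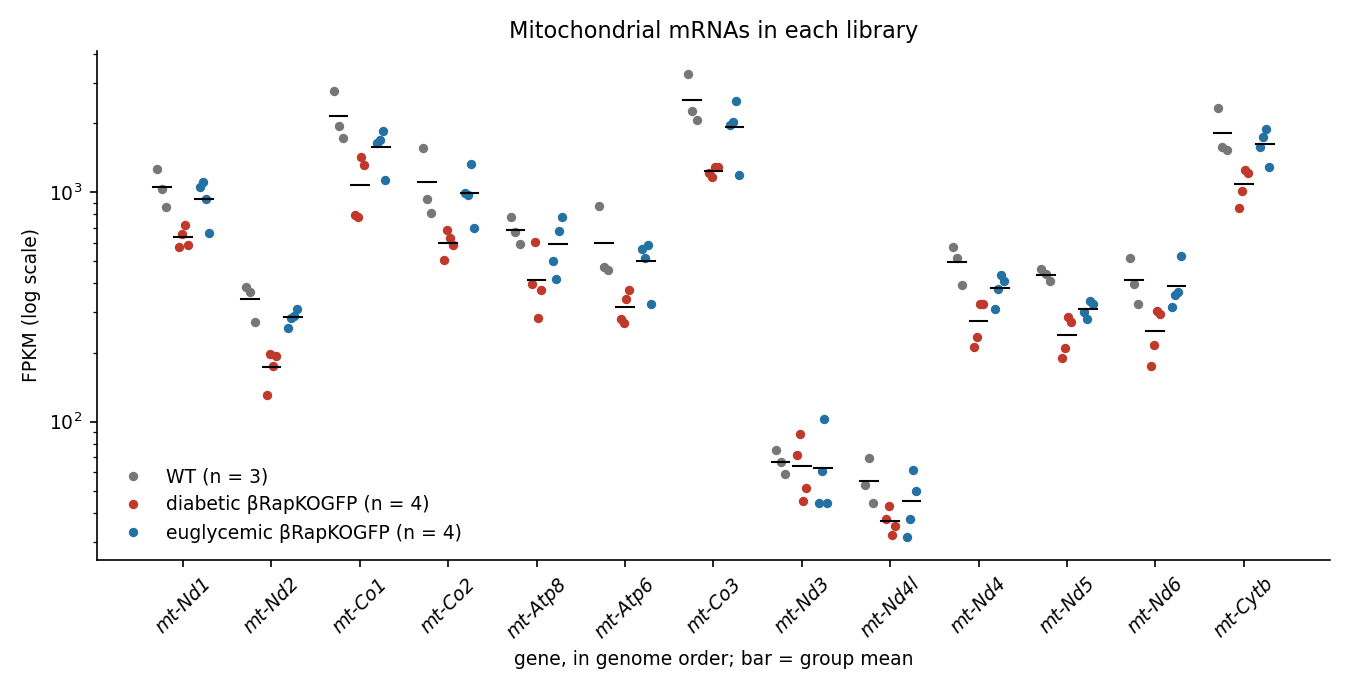
FPKM (log scale) of the 13 mitochondrial mRNAs in genome order, with one point per library (grey WT, red diabetic βRapKOGFP, blue euglycemic βRapKOGFP) and a bar at each group mean. The red points lie below the grey ones without overlap for 11 genes, the exceptions being *mt-Atp8* and *mt-Nd3*, and the blue points mostly overlap the grey ones.

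The first comparison asks how the mitochondrial mRNAs of *Raptor*-deficient β-cells of diabetic mice compared with WT. The mean FPKM of all 13 was lower in the diabetic group (49.3% of all genes had a fitted value below 0), and the fitted log2 fold change had a median of −0.82, beside 0.01 over all 11251 genes tested. Only *mt-Nd2*, which encodes a core membrane subunit of complex I (NADH dehydrogenase), was called, that is, had an adjusted p no larger than 0.05 and changed 1.5-fold or more, and 0.498% of all genes were called in the downward direction. The diabetic mean was 0.488 times the WT mean for *mt-Co3*, the lowest ratio, and 0.955 times for *mt-Nd3*, the highest. The groups did not overlap, with the diabetic one lower, for 11 of 13 mRNAs, against 6.88% of all genes. At an unadjusted p of at most 0.05, 12 of 13 were lower, against 5.74% of all genes, and 8 to 12 under the alternatives. The 13 values are not independent of each other: they come from the same libraries, and WT replicate 1 was the highest WT library for 12 of them and WT replicate 3 the lowest for all 13.

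Complex I, which passes electrons from NADH to ubiquinone, has 7 subunits encoded in mitochondrial DNA. *mt-Nd2* (ENSMUSG00000064345, chrM:3914-4951) was at 387, 367 and 272 FPKM in WT, at 130, 198, 174 and 192 in diabetic and at 257, 283, 290 and 309 in euglycemic samples. Every diabetic library was below every WT and every euglycemic library. It fell by 0.98 on the log2 scale (SE 0.21, adjusted p = 0.0449, limma with Benjamini-Hochberg adjustment). Over 25 alternative settings its adjusted p ranged from 0.00601 to 0.197, and the call was kept in 9 of them. The 9 include the looser rules (an unadjusted p, or no fold criterion) on the same fit, which could not end the call. Leaving out any 1 of the 11 libraries ended the call (adjusted p 0.0623 to 0.197), with the exception of euglycemic replicate 4 (0.0335). *mt-Nd5* (chrM:11742-13565), a core subunit of the proton-pumping arm, was at 461, 439 and 409 FPKM in WT, 189, 210, 284 and 273 in diabetic and 301, 281, 336 and 326 in euglycemic samples. It was the only mRNA with every library of both mutant groups below every WT library. Of all genes, 6.88% lay below WT without overlap in diabetic and 5.02% in euglycemic libraries. The share of all genes that did so in both was not counted. Its log2 fold change in diabetic against WT was −0.88 (SE 0.20), which missed the threshold with an adjusted p of 0.0579.

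*mt-Nd4* was at 579, 518 and 395 FPKM in WT and at 211, 234, 324 and 327 in diabetic libraries, with a log2 fold change of −0.87 (SE 0.23, adjusted p = 0.121). *mt-Nd1*, which shares no stretch with a nuclear gene, was at 1258, 1033 and 866 FPKM in WT and at 580, 659, 721 and 590 in diabetic libraries, with −0.71 (SE 0.23, adjusted p = 0.222). *mt-Nd6*, the minus-strand gene, was at 517, 399 and 324 FPKM in WT and at 174, 217, 304 and 294 in diabetic libraries, with −0.75 (SE 0.26, adjusted p = 0.257). For these 3 complex I genes the WT and diabetic libraries did not overlap. The short *mt-Nd4l* was at 52.9, 69.2 and 44.0 FPKM in WT and at 37.5, 42.7, 32.2 and 35 in diabetic libraries, also without overlap, with −0.56 (SE 0.24, adjusted p = 0.393).

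*mt-Nd3* had the smallest change of the 13 in diabetic against WT, and its difference from the other 12 was not tested. Its FPKM was 75.3, 66.5 and 58.9 in WT, 71.3, 88.1, 45.1 and 51.1 in diabetic and 44.2, 61.1, 103 and 44.1 in euglycemic samples, so that all 3 groups overlapped. The log2 fold change of diabetic against WT was −0.11 with an SE of 0.31 (adjusted p = 0.928, limma). As a percent of the summed FPKM of the 13 mRNAs, *mt-Nd3* took 0.505 to 0.619% in WT and 0.636 to 1.43% in diabetic libraries, the only member whose share was above WT in every diabetic library. Almost all its stretches (98.0%) also occur in the nuclear copy *Gm28438*, whose FPKM varied between 0.283 and 0.914 of that of *mt-Nd3* over the libraries. With the copy added to it, the log2 fold change of *mt-Nd3* was −0.25 (SE 0.29, adjusted p = 0.808).

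*mt-Cytb*, the one mitochondrial subunit of complex III, shares no stretch with a nuclear gene. It was at 2327, 1575 and 1524 FPKM in WT, 852, 1016, 1250 and 1214 in diabetic and 1575, 1745, 1878 and 1282 in euglycemic samples. The diabetic group lay below both others, with a log2 fold change from WT of −0.73 (SE 0.24, adjusted p = 0.233).

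Complex IV, cytochrome c oxidase, has 3 mitochondrial subunits that form its catalytic core, and their median log2 fold change in diabetic against WT was −1.005. *mt-Co1* was at 2773, 1938 and 1726 FPKM in WT, 797, 779, 1419 and 1318 in diabetic and 1640, 1681, 1842 and 1132 in euglycemic samples, with −1.02 (SE 0.29, adjusted p = 0.154). *mt-Co3* was at 3279, 2261 and 2065 FPKM in WT, 1216, 1159, 1288 and 1288 in diabetic and 1960, 2026, 2507 and 1194 in euglycemic samples, with −1.01 (SE 0.27, adjusted p = 0.124). *mt-Co2* was at 1557, 938 and 814 FPKM in WT, 505, 682, 630 and 590 in diabetic and 991, 975, 1321 and 700 in euglycemic samples, with −0.82 (SE 0.27, adjusted p = 0.230). In all 3 genes the diabetic libraries were below the WT libraries. For *mt-Co1* and *mt-Co3*, 1 euglycemic library, replicate 4, fell within the diabetic range, and the other 3 were above it.

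ATP synthase, complex V, takes 2 subunits of its membrane sector from mitochondrial DNA. *mt-Atp6* was at 868, 474 and 459 FPKM in WT, 280, 268, 341 and 375 in diabetic and 567, 514, 592 and 326 in euglycemic samples, with a log2 fold change in diabetic against WT of −0.87 (SE 0.28, adjusted p = 0.216). *mt-Atp8* was at 782, 668 and 595 FPKM in WT, 397, 608, 283 and 376 in diabetic and 502, 417, 678 and 783 in euglycemic samples, with −0.76 (SE 0.29, adjusted p = 0.298). For *mt-Atp8* diabetic replicate 2 lay within the WT range.

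**Figure D2:**
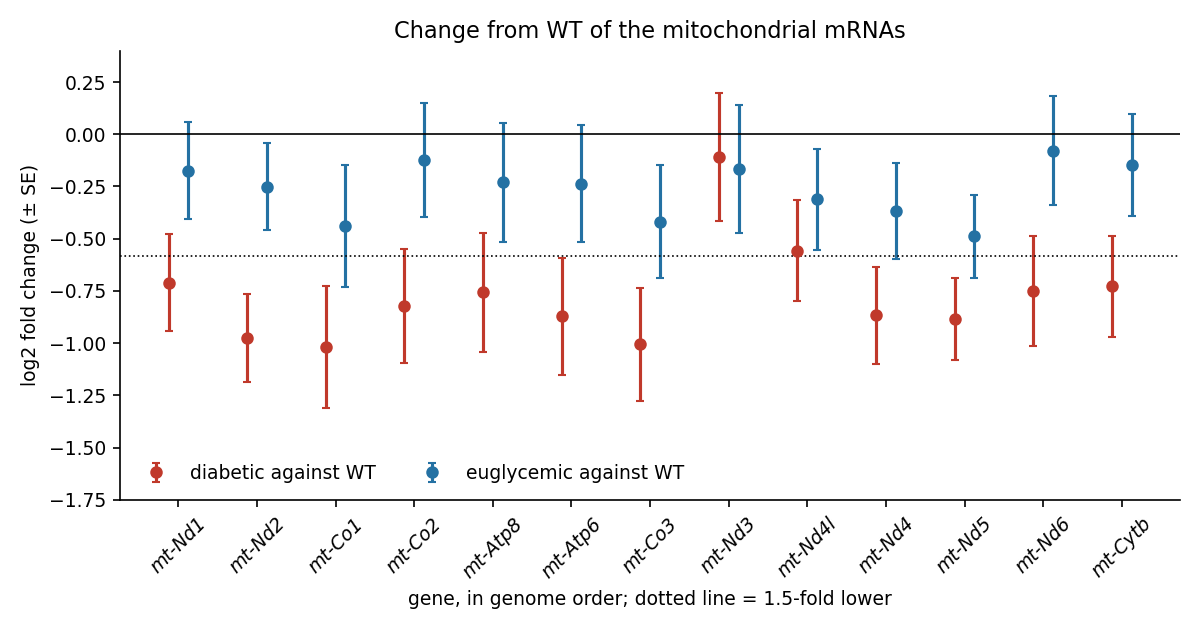
Log2 fold change from WT (± SE from the limma fit) of each mitochondrial mRNA in diabetic (red) and euglycemic (blue) libraries, with a dotted line at a 1.5-fold lower level. All 26 points are below 0, with medians of −0.82 and −0.24, and only *mt-Nd2* in the diabetic comparison passed the adjusted threshold.

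The second comparison, euglycemic against WT, asks what was seen in *Raptor*-deficient cells whose host had an insulin pellet. It shares the WT libraries with the first. All 13 log2 fold changes were again below 0, as were 51% of those of all genes, but their median was −0.24 and none was called (0.196% of all genes were called lower). At an unadjusted p of at most 0.05, 1 of 13 was lower, against 6.52% of all genes. That gene was *mt-Nd5*, with a log2 fold change of −0.49 (SE 0.20, adjusted p = 0.297, limma), and it was also the only one whose libraries did not overlap, against 5.02% of all genes. The count of 1 rested on the scaling and the libraries: it was 8 (15.5% of all genes) after rescaling without the mitochondrial genes, *Ins1* and *Ins2*, 2 (18.2%) with library weights, and 0 without WT replicate 1 or 2 or without euglycemic replicate 1 or 2. The others lay between −0.44 (SE 0.29) for *mt-Co1* and −0.08 (SE 0.26) for *mt-Nd6*. The SEs were 0.20 to 0.31. The 4 complex I genes whose euglycemic values were not yet given overlapped with WT. *mt-Nd1* was at 1055, 1105, 931 and 662 FPKM and *mt-Nd4* at 310, 379, 435 and 411. *mt-Nd6* was at 314, 358, 369 and 526, with its highest library above every WT library, and *mt-Nd4l* at 31.5, 37.6, 61.6 and 49.6. Euglycemic replicate 4 was the lowest of its group for 7 mRNAs and the highest for 3, and replicate 3 was the highest for 9. Without WT replicate 1, 9 of 13 were below 0 and the median was −0.13, and without WT replicate 3 all 13 were below 0 and the median was −0.40.

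The third comparison sets diabetic directly against euglycemic libraries, and so tests whether the changes of the 2 mutant groups differed. The log2 fold change was below 0 for 12 of 13 mRNAs, against 49.1% of all genes, with a median of −0.58. None was called, and of all genes tested 0.00889% were called in either direction and 0% lower. These shares rested on WT replicate 1, without which 380 of 11186 genes were called, 185 of them lower, with 1 member among them (*mt-Nd2*). At an unadjusted p of at most 0.05, 8 of 13 were lower in diabetic libraries, against 10% of all genes. That count was 3 after rescaling to TPM (4.75% of all genes) or without the mitochondrial and insulin genes (2.85%), 4 with the replicate block (8.15%), 2 without diabetic replicate 1 or euglycemic replicate 3, 4 without euglycemic replicate 2, and 5 without diabetic replicate 2 or euglycemic replicate 1. It was 10 by the median of ratios (11.4%), with no trend (9.99%) and without WT replicate 1 (12.4%). With a minimum of 5 FPKM (14.9%), a pseudocount of 0.1 (10%), library weights (16.7%) or every copy added (10%), and without diabetic replicate 3 (9.7%), it was 9. *mt-Nd2* was the most separated, with −0.73 (SE 0.19, adjusted p = 0.123, limma), and *mt-Co2* (−0.70, SE 0.25), *mt-Nd6* (−0.67, SE 0.24) and *mt-Cytb* (−0.58, SE 0.23) followed among those without overlap. For these 4 of 13 genes every diabetic library was below every euglycemic one, against 7.42% of all genes. The mean of the euglycemic group lay between the other two for 12 of 13 mRNAs, and for *mt-Nd3* it was the lowest. With both mutant groups pooled against WT none was called (0.516% of all genes were called lower), and 6 of 13 were lower at an unadjusted p of at most 0.05, against 5.37% of all genes, but 12 (9.61%) after rescaling without the mitochondrial and insulin genes and 3 (7.04%) without WT replicate 1.

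The sum of the 13 mRNAs gives their weight in the libraries. They took 3.52, 2.70 and 2.41% of all FPKM in WT, 1.51, 1.53, 1.88 and 1.74% in diabetic, and 2.39, 2.37, 2.64 and 1.82% in euglycemic libraries. The diabetic libraries were thus all below the WT libraries, whereas of the euglycemic libraries 1 was within the WT range, 2 were just below it and replicate 4 was within the diabetic range. The group means were 2.88 ± 0.575% (SD, n = 3), 1.67 ± 0.179% (n = 4) and 2.31 ± 0.347% (n = 4). Without WT replicate 1, the difference of euglycemic from WT shrank from −0.57 to −0.25 percentage points, and that of diabetic from WT from −1.21 to −0.89. *Ins1* and *Ins2* alone took 25.9 to 40.5% of all FPKM in WT, 25.2 to 41.3% in diabetic and 17.5 to 36.5% in euglycemic samples, so every share depends on them. The 36.5% was that of euglycemic replicate 4, and the other euglycemic libraries had at most 21.5%. When the libraries were rescaled to a sum without the mitochondrial genes and both insulin genes, the median of all genes moved to −0.28 in euglycemic against WT, and relative to that median the mitochondrial mRNAs were at −0.25, where the deposited scale gave −0.23. In diabetic against WT the values relative to all genes were −0.85 and −0.83. In diabetic against euglycemic the median of all genes moved to 0.27 by that rescaling and to 0.14 by rescaling to TPM, and relative to it the mitochondrial mRNAs were at −0.59 and −0.60, beside −0.59 on the deposited scale.

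**Figure D3:**
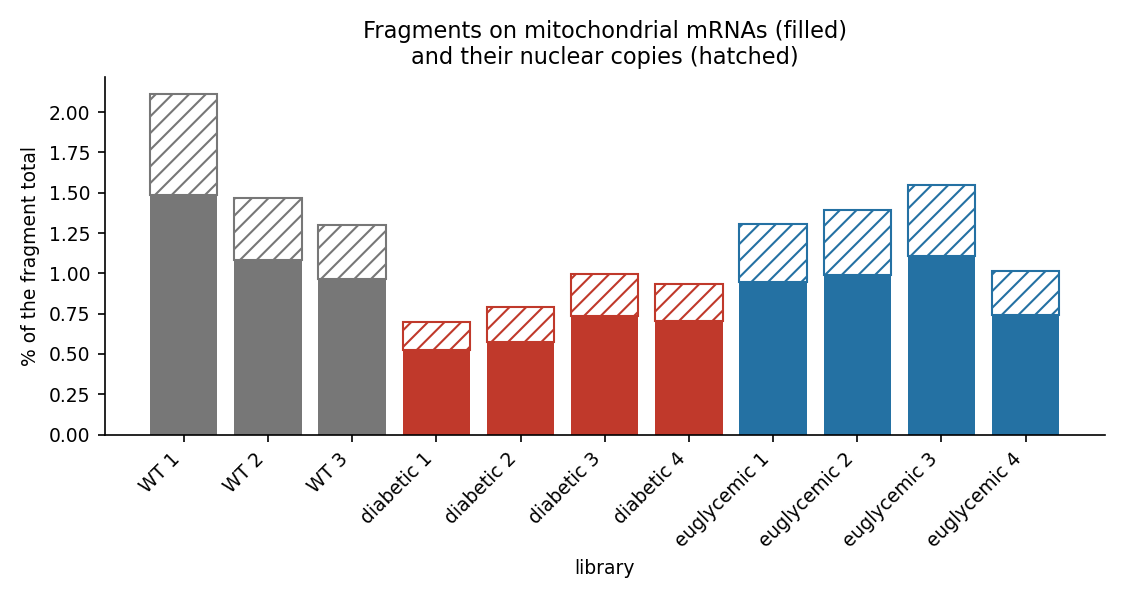
Percent of the inferred fragments of each library on the 13 mitochondrial mRNAs (filled) and on the nuclear genes that share stretches with them (hatched), by library. Both parts together make up a mean of 1.63% in WT, 0.856% in diabetic and 1.32% in euglycemic samples.

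Of the 11 nuclear copies in the table, 10 were tested. All 10 had a log2 fold change below 0 in diabetic against WT (49.3% of all genes), from −1.08 to −0.52 with a median of −0.81. None was called (0.498% of all genes were called lower). Near-identical copies may hold fragments of the members, so these 10 are not observations separate from the 13. *Gm28437*, the copy of *mt-Co3*, was at 3006, 1905 and 1671 FPKM in WT, 894, 1009, 1156 and 981 in diabetic and 1894, 1974, 2162 and 1039 in euglycemic samples, or 0.735 to 0.975 times the FPKM of *mt-Co3* in the same library. *Gm10925*, the copy of *mt-Atp6*, had 2.64 to 3.94 times the FPKM of that gene. *Gm13340*, which differs from *mt-Co1* along its length, had 34.8 to 95.4 FPKM, far less than *mt-Co1*. Fragments on the copies made up 24.4 to 29.6% of those on members and copies together over all libraries, with group means of 27.4 ± 1.89% (WT), 25.8 ± 1.29% (diabetic) and 27.9 ± 1.10% (euglycemic, SD). How the fragments were split between a mitochondrial gene and its copy cannot be told from FPKM. The 6 mRNAs with few or no shared stretches had a median log2 fold change of −0.75 in diabetic and −0.20 in euglycemic against WT, and the 7 with most stretches shared had −0.87 and −0.31. Adding each copy that shares most stretches to its member, weighted by length, left the median of the 13 at −0.83 and −0.23.

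Within the set, the shares of most mRNAs overlapped between groups. As percent of the summed FPKM of the 13, *mt-Co3* took 21.5 ± 0.474% in WT (SD, n = 3), 19.5 ± 1.93% in diabetic (n = 4) and 19.6 ± 2.91% in euglycemic samples (n = 4), and *mt-Co1* took 18.2 ± 0.311%, 16.6 ± 3.51% and 16.3 ± 1.18%. *mt-Cytb* took 15.4 ± 0.672%, 16.8 ± 0.934% and 16.8 ± 0.583%. In diabetic against WT, 12 of 13 shares overlapped between the groups and that of *mt-Nd3* was above WT. In euglycemic against WT, 11 of 13 overlapped, that of *mt-Co1* was below WT and that of *mt-Cytb* above it.

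The same 4 complexes take most of their subunits from nuclear genes, and 71 of 76 listed nuclear subunits were tested. In diabetic against WT their median log2 fold change was −0.21, with 64 of 71 below 0 (49.3% of all genes), 1 called lower (0.498%) and 7 lower at an unadjusted p of at most 0.05 (5.74%). In euglycemic against WT the median was 0.42, with 3 of 71 below 0 (51% of all genes) and 1 called lower (0.196%), and 17 were higher at an unadjusted p of at most 0.05, against 7.33% of all genes. The mitochondrial mRNAs thus had their medians below those of the nuclear subunits in both comparisons, −0.82 beside −0.21 and −0.24 beside 0.42, a difference that was not tested. In diabetic against euglycemic, 53 of 71 nuclear subunits were lower at an unadjusted p of at most 0.05, against 10% of all genes, with a median of −0.66 and none called. Here the order was the other way, with the mitochondrial mRNAs at a median of −0.58, and this difference was not tested either. The signs of the 3 nuclear medians were the same under every scaling tried, and with the mitochondrial and insulin genes left out of the sum the euglycemic median was 0.14, or 0.42 above that of all genes. Without WT replicate 1, however, the diabetic median turned to 0.07 with 29 of 71 below 0, and it was −0.02 with library weights, with 36 below 0. The counts at an unadjusted p moved as well: over the alternatives 1 to 16 nuclear subunits were lower in diabetic against WT (1 without WT replicate 1), 3 to 65 were higher in euglycemic against WT (3 without WT replicate 2, 4 without WT replicate 3, 53 without WT replicate 1 and 65 with library weights), and 30 to 66 were lower in diabetic against euglycemic.

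The nuclear subunit that was called is *Cox6a2*, a form of a regulatory complex IV subunit best known from heart and skeletal muscle. It was at 124, 152 and 148 FPKM in WT, 20.1, 37, 26.4 and 40.5 in diabetic and 66.7, 36.0, 54.4 and 22.3 in euglycemic samples, with no overlap between WT and either mutant group. It fell by 2.20 on the log2 scale in diabetic (SE 0.34, adjusted p = 0.00915, limma) and by 1.74 in euglycemic libraries (SE 0.34, adjusted p = 0.0389). Over 21 alternatives the diabetic call was kept in 17 (adjusted p 0.000222 to 0.0722) and the euglycemic one in 11 (0.00102 to 0.217). Neither call held without WT replicate 2 (adjusted p 0.0594 in diabetic and 0.209 in euglycemic samples), without WT replicate 3 (0.0579 and 0.217), with the replicate block (0.0560 and 0.169) or with no filter on low values (0.0722 and 0.175). The euglycemic call was also lost without diabetic replicate 2 (0.0512) or 3 (0.0678), without euglycemic replicate 2 (0.120) or 3 (0.0537), with a pseudocount of 0.1 (0.0529) and with only the groups compared (0.0936).

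Among the complex I subunits (36 tested, none called in a comparison with WT), *Ndufc2* was at 126 ± 49.4 FPKM in WT (SD, n = 3), 137 ± 4.90 in diabetic (n = 4) and 234 ± 30.3 in euglycemic samples (n = 4), with log2 fold changes from WT of 0.20 and 0.95 (adjusted p = 0.815 and 0.122, limma). *Ndufs7* had −0.14 and 0.64. Of 9 complex III subunits none was called, and *Uqcrc1*, a core protein, had −0.56 and 0.24 while *Uqcrh*, the hinge protein, had 0.08 and 0.82. Of 14 complex V subunits none was called, and *Atp5g1* and *Atp5g3*, which encode the same ring subunit c, had −0.05 and −0.21 in diabetic and 0.53 and 0.50 in euglycemic against WT.

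The nuclear genes that copy, transcribe, process and translate the mitochondrial genome were examined in 3 lists. Of their 51 genes all were tested and none was called in either comparison with WT, where 0.969% and 0.551% of all genes were called in either direction. The median log2 fold change was 0.03 in diabetic and 0.09 in euglycemic against WT, the latter −0.18 when the mitochondrial and insulin genes were left out of the sum, where all genes had −0.28. Single libraries left out gave medians of −0.027 to 0.0965 in diabetic and −0.034 to 0.14 in euglycemic against WT. At an unadjusted p of at most 0.05, 2 were higher in diabetic libraries (6.15% of all genes) and 1 lower (5.74%), and 4 were higher (7.33%) and 0 lower (6.52%) in euglycemic libraries. Over the alternatives these 4 counts ranged from 0 to 7, 0 to 2, 0 to 17 and 0 to 6, with the highest counts of genes higher under library weights and the 6 lower after rescaling without the mitochondrial and insulin genes. *Polrmt*, the mitochondrial RNA polymerase, was at 1.79 ± 0.313 FPKM in WT, 2.09 ± 0.622 in diabetic and 1.57 ± 0.647 in euglycemic samples (SD), with log2 fold changes of 0.13 and −0.15. *Tfam*, which packages mitochondrial DNA and helps start transcription, was at 5.48 ± 1.39, 5.90 ± 0.803 and 6.77 ± 0.944 FPKM, with 0.11 and 0.28. *Lrpprc* and *Slirp*, whose products form the complex that stabilises mitochondrial mRNAs, had −0.11 and −0.06 in diabetic and −0.15 and 0.23 in euglycemic against WT, with adjusted p of at least 0.702 in limma.

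Other genes of these lists are given by the same rule. *Top1mt*, the mitochondrial topoisomerase, was low, at 0.535, 0 and 0.194 FPKM in WT, 1.66, 2.04, 1.98 and 0.254 in diabetic and 2.49, 2.37, 1.36 and 0 in euglycemic samples, with log2 fold changes on the log2(FPKM + 1) scale of 0.94 and 0.91 (adjusted p = 0.406 and 0.360, limma). *Mgme1*, a nuclease of mitochondrial DNA maintenance, had 0.44 and 0.64. *Rexo2*, an oligoribonuclease that clears short RNAs, was at 95.9 ± 24.2 FPKM in WT, 112 ± 22.7 in diabetic and 150 ± 17.6 in euglycemic samples (SD), with 0.22 and 0.66, and *Fastkd1*, an RNA-binding protein of the matrix, had 0.57 and 0.24. Of the 11 translation factors, *Mtif3*, an initiation factor, had −0.49 and −0.12, and *Taco1*, a translational activator of *mt-Co1*, had −0.53 and −0.24.

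**Figure D4:**
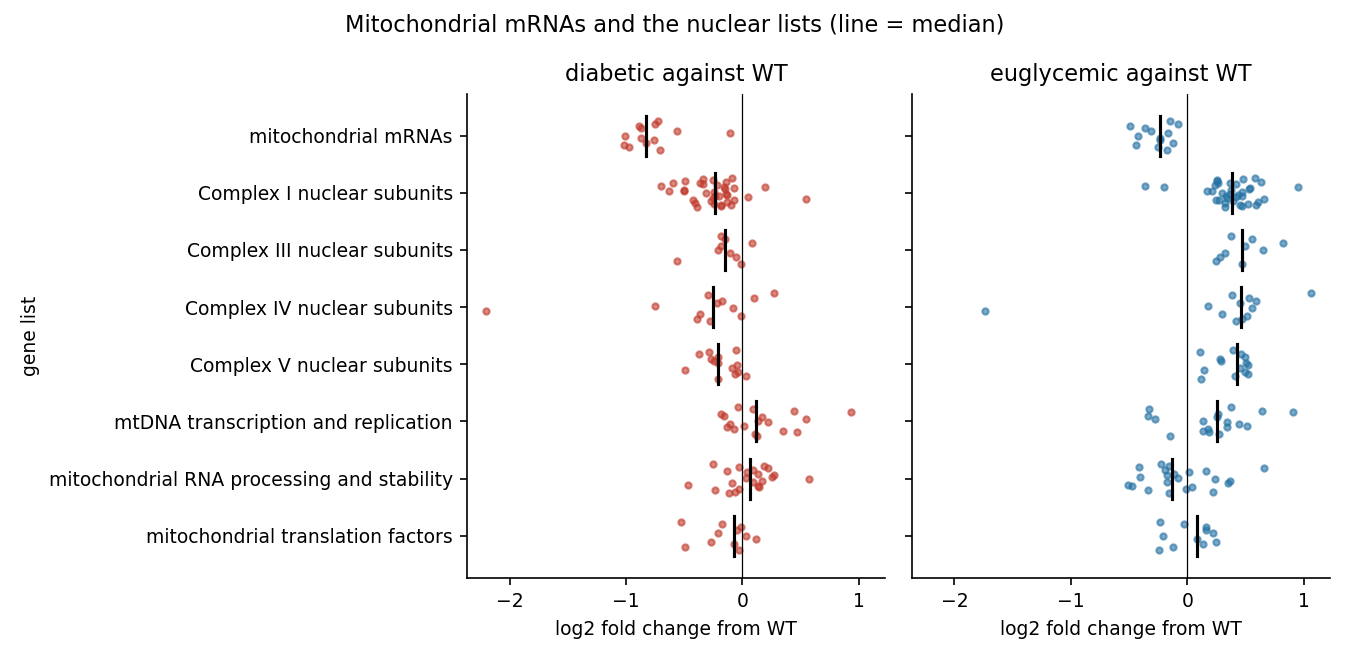
Log2 fold change from WT of the 13 mitochondrial mRNAs and of the genes of 7 nuclear lists in diabetic (left) and euglycemic (right) libraries, with a line at each median. The mitochondrial mRNAs have the lowest median in both panels, the nuclear subunit lists are below 0 on the left and above 0 on the right, and the point far to the left in complex IV is *Cox6a2*.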

How the data were processed

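GFP-sorted β-cells were profiled in 11 poly-A libraries, and groups and replicate numbers came from the titles. The deposited values are FPKM made by the authors, with ribosomal RNA reads removed beforehand. The study's methods name Tophat, mm10, Cufflinks and Cuffdiff, whereas the submitters' processing notes name HISAT2 2.0.4, StringTie 1.3.0 and edgeR, and which of them made the table was not settled. Neither source states how fragments matching several places were counted.

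Of 34745 entries, 34267 were matched to a symbol in GENCODE vM21 (GRCm38), 478 were not, and 17 duplicates of a symbol were left out, which kept 34728. log2(FPKM + 1) of all 11 libraries was fitted in limma 3.58.1 (R 4.3.3, eBayes with a trend) over the 11251 genes that reached 1 FPKM in 3 or more libraries, with Benjamini-Hochberg adjustment over all of them. The thresholds for a call, an adjusted p up to 0.05 and a 1.5-fold change, are those of the study's methods. Fold changes on this scale understate the changes of low genes. The fit was tested on simulated data. Gaps, shares and counts were computed with Python 3.11.15, numpy 2.4.6 and pandas 2.3.3.

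Depth was inferred from 4483 single-exon genes of at least 500 bases, as the number of fragments that turned low values into whole steps (up to 20, tolerance 0.02). All 26 member values under 1000 inferred fragments were within 0.1 of a whole number. Shared sequence was searched as exact 50-base stretches in the annotated transcripts, and differences were counted without gaps.

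All 13 protein-coding members are named. Nuclear genes sharing a stretch were open to naming at a mean of at least 1 FPKM, and from each pathway list the members called in a mutant group, or else the 2 with the smallest p, with *Polrmt*, *Tfam*, *Lrpprc* and *Slirp* always. The members and lists were chosen with earlier results of these data known. Alternatives were the filter, the pseudocount, 3 scalings, the trend, library weights, the replicate block, the groups in the fit, the thresholds, the nuclear copies added, and each library left out. Adding every copy, and ordering the WT levels with copies added, were chosen after seeing the data.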

Additional observations from a re-analysis of the deposited data

How the results depend on the processing

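The 13 fitted changes of diabetic against WT kept their direction under every alternative except for *mt-Nd3*, which was 0.0065 with the replicate block and −0.28 to 0.041 when single libraries were left out. The count of mRNAs called, 1 as reported, was 0 with no filter on low values, after rescaling to TPM, with the replicate block, with every nuclear copy added and with only the groups compared. It was 2 with no trend, 4 with library weights, 5 after rescaling without the mitochondrial and insulin genes and 11 at an unadjusted p with the fold criterion kept, and 0 to 3 when single libraries were left out. By the median of ratios 1 mRNA was called, *mt-Nd5* in place of *mt-Nd2*. For diabetic against euglycemic, 0 as reported, it was 6 with library weights, 5 at an unadjusted p with the fold criterion and 0 to 1 leaving out single libraries, the 1 being *mt-Nd2* without WT replicate 1. For both mutant groups against WT, 0 as reported, it was 3 after rescaling without the mitochondrial and insulin genes, 2 with library weights and 5 at an unadjusted p with the fold criterion. The euglycemic count was 0 under each of these alternatives, and 1 (*mt-Nd5*) at an unadjusted p without the fold criterion. Same-numbered libraries were not more alike than others: their deviations had a mean correlation of −0.13 over 10 pairs (−0.37 to 0.21), others 0.04 over 30 (−0.32 to 0.36). The labels do not say whether the numbers pair the samples, and these correlations cannot settle it. With the block, *mt-Nd2* was at −1.02 with an adjusted p of 0.133, and over all genes 45, 20, 0 and 53 were called in the 4 comparisons, against 109, 62, 1 and 118 without it. Over all genes the filter and the weights also mattered: 22, 13, 0 and 23 with no filter, 551, 2287, 1212 and 1116 with library weights. So did single libraries: 34, 532, 380 and 138 without WT replicate 1, and 23 to 209, 10 to 62, 0 to 4 and 28 to 179 without any other 1. Rescaling moved the split of all calls: 53 higher and 56 lower in diabetic against WT became 49 and 28 in TPM, 40 and 22 in euglycemic against WT became 34 and 86 without the mitochondrial and insulin genes, and 60 and 58 for both groups became 61 and 38, and 55 and 111. The cause of these changes was not tested.

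In euglycemic against WT, 4 members turned above 0 with library weights: *mt-Nd1* (0.062), *mt-Co2* (0.18), *mt-Atp6* (0.14) and *mt-Cytb* (0.10). Leaving out single libraries gave −0.31 to 0.15 for *mt-Co2*, −0.40 to 0.062 for *mt-Atp6*, −0.24 to 0.10 for *mt-Nd6* and −0.26 to 0.050 for *mt-Cytb*. In diabetic against euglycemic, *mt-Nd3* was −0.10 with library weights, −0.15 with the nuclear copies or every copy added, and −0.11 to 0.32 leaving out single libraries, and *mt-Nd4l* was 0.0012 after rescaling without the mitochondrial and insulin genes. The share of FPKM differed from WT by −2.12 points in diabetic and −1.48 in euglycemic libraries when the mitochondrial and insulin genes were left out of the total, and in diabetic libraries by −1.79 with the nuclear copies added and −1.86 with every copy. Single libraries left out gave −1.45 to −0.89 and −0.81 to −0.25. Of the nuclear genes, in diabetic against WT *Ndufs7* was 0.076, *Atp5g1* 0.080 and *Slirp* 0.072 with library weights, and after rescaling to TPM *Atp5g1* was 0.018 and *Slirp* 0.014. In euglycemic against WT, *Uqcrc1* was −0.037 and *Slirp* −0.010 after rescaling without the mitochondrial and insulin genes. In diabetic against WT single libraries left out gave −0.031 to 0.49 for *Ndufc2*, −0.29 to 0.15 for *Ndufs7*, −0.14 to 0.10 for *Atp5g1*, −0.030 to 0.27 for *Tfam*, −0.24 to 0.020 for *Lrpprc* and −0.34 to 0.18 for *Slirp*. In euglycemic against WT they gave −0.27 to 0.025 for *Polrmt*, −0.052 to 0.46 for *Slirp* and −0.21 to 0.067 for *Mtif3*. Taking all 37 genes in place of the 13 gave no value, since only the 13 have FPKM here.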
